A study of Mus musculus with 4 samples.

Results

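Mcpt1 and Mcpt2, which encode proteases of mucosal mast cells, were described together with Kit, the receptor for stem cell factor, and with Ccr3 and Siglecf, 2 surface receptors of eosinophils. These 5 genes were taken by symbol from the deposited table, where all 5 were found among 4121 listed genes. Mcpt1 and Mcpt2 fell in Elf4-KO colon, to 12.6% and 5.89% of the WT value, while Kit, Ccr3 and Siglecf rose 2.22-fold, 5.12-fold and 2.72-fold.

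The tissue was inflamed distal colon of 8-week-old C57BL/6 mice at day 6 of treatment with 3% DSS (dextran sulfate sodium), a sulfated sugar polymer used to induce colitis by damaging the epithelium. The groups were 2 WT samples and 2 Elf4-KO samples. Elf4 encodes a transcription factor of the Ets family, and both genotypes received DSS, so no untreated colon enters the comparison. The sources used here give neither the deleted part of Elf4 nor whether samples with the same genotype are separate animals.

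The table holds a single FPKM (fragments scaled to transcript length and to the mapped total) for each gene in each genotype. It can therefore show neither the values of the 2 samples nor their SD, and the depth is unknown. The authors' call (q of at most 0.05 and a difference of at least 2-fold) was met by 100% of the table, so rose and fell below refer to that call. Of the listed genes, 52.0% were lower and 48.0% higher in Elf4-KO, beside 2 of 5 and 3 of 5 of the genes described here. With a limit of 4-fold, 24.5% of listed genes were lower and 12.9% higher, beside 2 of 5 and 1 of 5 here. The 5 genes were chosen with results known, and nothing is read from these shares. The share of all genes that were listed was not computed, so nothing is read from the counts of the gene lists below either. Elf4 itself went from 16.4 FPKM in WT to 3.51 FPKM in Elf4-KO. All 10 of 10 epithelial markers, such as Epcam and Cdh1, were listed, at 195 to 2335 FPKM in WT, and all 10 fell. This marker list was also chosen with earlier results of these data known. In whole tissue, fewer cells of a type and less RNA per cell cannot be told apart. Where no q is printed for a gene, the authors' deposited table gives q = 0.000372, a floor that 2233 genes share.

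Mast cells are granulated immune cells that mature in the tissue under the control of stem cell factor, the ligand of Kit. In the mouse gut, mucosal mast cells lie in and just below the epithelium and store the chymase-type serine proteases mMCP-1 and mMCP-2, the products of Mcpt1 and Mcpt2, whereas mast cells of connective tissue store a different set that includes tryptases. mMCP-1 is released into the epithelium and the blood in worm infection and allergy. Eosinophils are granulocytes that reside in the healthy gut, respond to eotaxins through Ccr3, and carry Siglec-F, an inhibitory receptor for sialylated sugars.

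The coding sequences of the protease pair are shown first, since their likeness bears on whether their reads can be told apart. Mcpt1 lies at 14:56017964-56020391 and Mcpt2 at 14:56042123-56044634 of GRCm38, both on the plus strand, and the annotation used here (GENCODE M21) gives each of them 5 exons. Aligned over 738 columns, 6 of them gaps, the coding sequences were 81.0% identical. The longest identical run was 49 bases. The stretch of 120 bases with the most differences, coding bases 200 to 319 counted from the A of the start codon, held 38 of them. Capitals mark the bases that differ.
Mcpt1: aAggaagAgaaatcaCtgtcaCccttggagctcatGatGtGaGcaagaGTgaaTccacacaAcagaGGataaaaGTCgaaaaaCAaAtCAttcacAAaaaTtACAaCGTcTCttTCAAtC
Mcpt2: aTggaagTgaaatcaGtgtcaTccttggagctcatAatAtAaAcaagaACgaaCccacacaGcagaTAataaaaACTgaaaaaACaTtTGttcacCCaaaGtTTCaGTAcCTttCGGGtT

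Of 965 windows of 50 bases in the Mcpt1 transcript and 1012 in that of Mcpt2, 0 occurred in a transcript of another gene in that annotation, on either strand. The same held for 5192 windows of Kit and 3223 of Ccr3. In Siglecf, 6 of 2558 windows (0.235%) were shared, all 6 of them with Siglecg and 5 of them also with Gm29791. No other annotated gene overlapped any of the 5 loci. Only exact matches were counted, and the longest run shared by the coding sequences of Mcpt1 and Mcpt2, 49 bases, was just short of a window. The sources used here give no read length. Reads that are shorter than these windows, or aligned with mismatches, may match more than 1 of these genes.

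Mcpt1 (ENSMUSG00000022227) had 31.7 FPKM in WT and 3.99 FPKM in Elf4-KO, a 7.95-fold fall. Its log2 ratio of Elf4-KO over WT was -2.71 after adding 1 to both values, a step that understates changes of low genes. Of the 5 genes, Mcpt1 had the highest level in WT, and in Elf4-KO it lay below Kit and Ccr3. Mcpt2 (ENSMUSG00000022226) had 17.9 FPKM in WT and 1.06 FPKM in Elf4-KO, a 17.0-fold fall with a log2 ratio of -3.20. This was the largest fold of the 5 genes. Among 2096 genes that fell and had a value above 0 in both genotypes, Mcpt2 ranked 119 and Mcpt1 445 from the largest fold down. The median fold among the genes that fell was 3.71.

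The 2 proteases did not fall by the same factor. The Mcpt1 level was 1.77 times that of Mcpt2 in WT and 3.78 times in Elf4-KO. Their summed level went from 49.6 to 5.04 FPKM, a 9.84-fold fall. Without values per sample, whether the 2 folds differ was not tested.

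**Figure D1:**
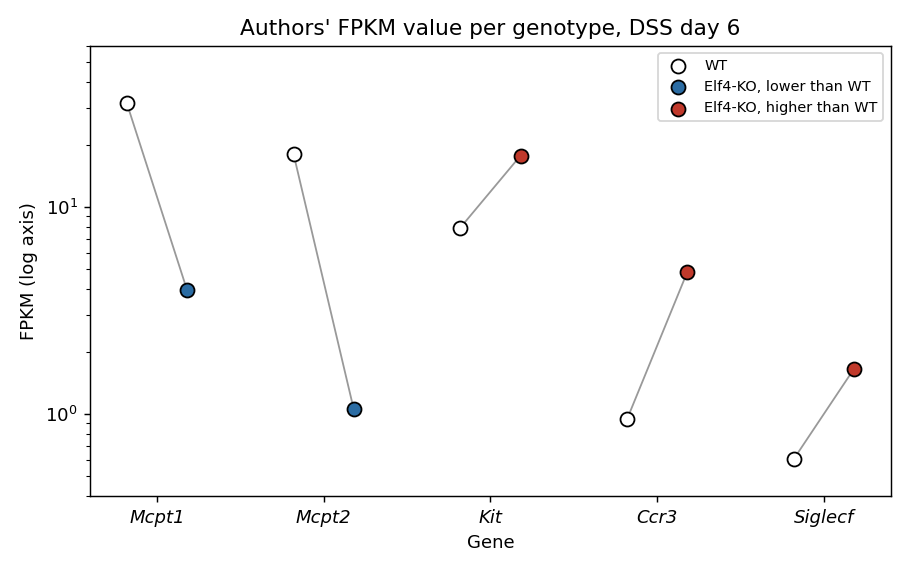
FPKM on a log axis for each of the 5 genes, 1 point per genotype (WT open, Elf4-KO filled, joined by a line), with no error bars because the table has 1 value per genotype. Mcpt1 and Mcpt2 drop from 31.7 and 17.9 FPKM to 3.99 and 1.06 FPKM, while Kit, Ccr3 and Siglecf rise.

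Kit (ENSMUSG00000005672), at 5:75574916-75656722 on the plus strand, had 7.95 FPKM in WT and 17.7 FPKM in Elf4-KO. The 2.22-fold rise had a log2 ratio of 1.06, and the authors' deposited table gives q = 0.00184. Of the genes that rose, 15.9% had a smaller fold than Kit, so this change lay close to the 2-fold limit of the table. Kit moved opposite to the proteases, although mucosal mast cells carry all 3 transcripts. The Mcpt1 level was 3.99 times the Kit level in WT and 0.225 times in Elf4-KO, and the Mcpt2 level went from 2.25 times to 0.0596 times the Kit level. In WT both proteases were above Kit. In Elf4-KO both were below it.

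Ccr3 (ENSMUSG00000035448), at 9:124021972-124031689 on the plus strand, had 0.948 FPKM in WT and 4.85 FPKM in Elf4-KO. Its 5.12-fold rise, a log2 ratio of 1.59, exceeded that of 84.0% of the genes that rose, whose median was 2.91-fold. Siglecf (ENSMUSG00000039013), at 7:43351341-43359531 on the plus strand, had 0.608 FPKM in WT and 1.65 FPKM in Elf4-KO, a log2 ratio of 0.72. Its q of 0.0418 in the authors' deposited table was close to the limit, with a larger q in 120 of the listed genes (2.91%). Siglecf was also the lowest of the 5 genes in WT, and 7.67% of listed genes had a lower value in their higher genotype. The smallest such value in the table was 0.497 FPKM. Added together, the 2 receptor genes went from 1.56 to 6.51 FPKM.

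The order of levels thus differed between the genotypes. In WT it was Mcpt1, Mcpt2, Kit, Ccr3 and Siglecf from high to low, and in Elf4-KO it was Kit, Ccr3, Mcpt1, Siglecf and Mcpt2. Which neighbours in these orders differ beyond the spread between samples was not tested, as the table has 1 value per genotype.

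**Figure D2:**
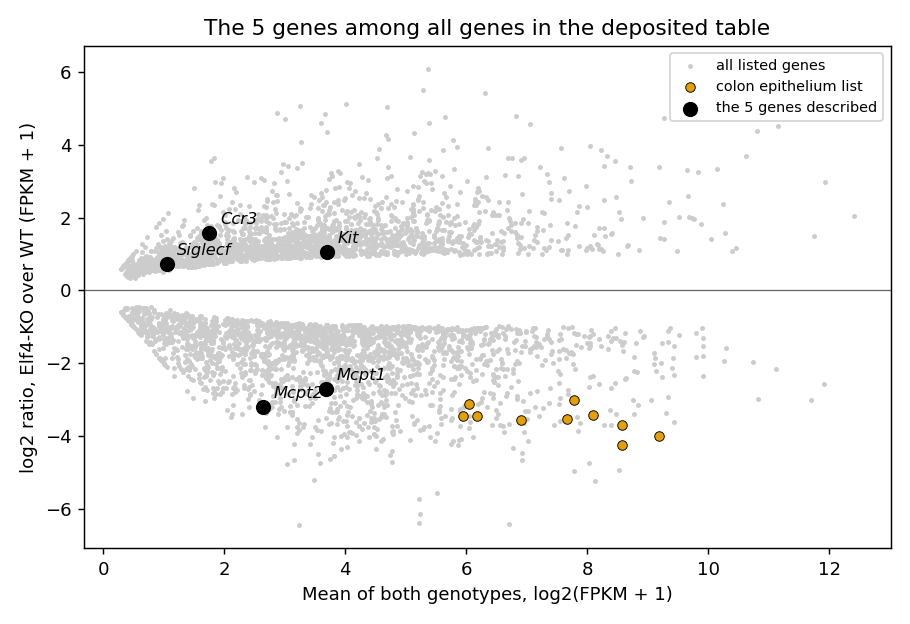
Log2 ratio of Elf4-KO over WT against mean level, both on the log2(FPKM + 1) scale, for the 4121 listed genes (grey), the 10 epithelial markers (orange) and the 5 genes (black). Mcpt1 and Mcpt2 lie at -2.71 and -3.20, and Siglecf at 0.72 lies among the low-level genes at the left.

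Other mast cell genes were read from lists of proteases and of receptors and identity genes. Of 13 mast cell proteases, only Mcpt1 and Mcpt2 were listed. The connective tissue chymases and tryptases Mcpt4, Cma1, Tpsab1 and Tpsb2, and the carboxypeptidase gene Cpa3, were not in the table, so their values are not analysed here. Of 15 receptor and identity genes, 7 were listed and 7 rose, beside 48.0% of listed genes over the whole table. The median log2 ratio of the 7 was 1.17. Their median fold of 2.68 lay below the median of 2.91 over all genes that rose. Hdc, the enzyme that makes histamine, rose 7.16-fold from 7.06 to 50.5 FPKM. Il1rl1, the receptor for interleukin-33, rose 6.11-fold from 19.9 to 121.7 FPKM. Srgn, the proteoglycan core of secretory granules, rose 3.27-fold from 162 to 529 FPKM. Fcer1g, the signalling chain shared by the IgE receptor and other Fc receptors, rose 2.26-fold from 169 to 382 FPKM. The other 2 besides Kit were Mitf (2.68-fold, with q = 0.00128 from the authors' deposited table) and Slc18a2 (2.14-fold, with q = 0.0197 from the authors' deposited table), chosen after their values were seen. Most of these genes are also expressed by other leukocytes or by stroma. The more restricted Fcer1a, Ms4a2, Mrgprb2 and Gata2 were not listed, so the genes of this list that are most restricted to mast cells are not analysed here.

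Of 9 genes for histamine, prostaglandin D2 and leukotriene synthesis, 5 were listed and 5 rose (median log2 ratio 2.32), beside 48.0% of all listed genes. Ptgs2, the inducible cyclooxygenase, rose 19.0-fold from 12.2 to 230.9 FPKM, and Ptgs1, the constitutive form, rose 5.07-fold from 16.7 to 84.8 FPKM. Alox5ap, which presents arachidonic acid to 5-lipoxygenase, rose 5.17-fold from 22.1 to 114.5 FPKM. Alox5, the lipoxygenase itself, rose 3.04-fold from 1.47 to 4.45 FPKM (q = 0.0384, from the authors' deposited table). The fifth was Hdc. Hpgds, the prostaglandin D synthase of mast cells, and Ltc4s, which makes leukotriene C4, were not listed. In the same tissue 7 of 9 listed neutrophil markers also rose. Over all 9, the median log2 ratio was 3.40 and the summed level went from 1191 to 4067 FPKM. Ly6g and Ltf, named after their values were seen, went the other way. Ly6g fell from 854 to 146 FPKM and Ltf from 14.4 to 2.05 FPKM. The part of neutrophils in the rise of the mediator enzymes was not tested.

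Of 16 eosinophil receptor and granule genes, 5 were listed and 5 rose, beside 48.0% of listed genes over the whole table. The median log2 ratio was 0.83. Without Ear6, which has no fold, the median fold was 2.81, beside 2.91 over all genes that rose. Besides Ccr3 and Siglecf these were Csf2rb, the shared receptor chain for interleukin-3, interleukin-5 and GM-CSF, Alox15, a lipoxygenase of eosinophils and macrophages, and Ear6, a ribonuclease of the eosinophil-associated family. Csf2rb rose 2.04-fold from 19.0 to 38.7 FPKM. Alox15 rose 2.90-fold from 0.687 to 1.99 FPKM (q = 0.0267, from the authors' deposited table). Ear6 was listed at 0 in WT and 0.762 FPKM in Elf4-KO (q = 0.000694, from the authors' deposited table), and the Ear genes have close copies, so reads may be split between them. Apart from Csf2rb, these genes stayed below 5 FPKM in both genotypes. The granule genes Epx, Prg2 and Prg3 and the interleukin-5 receptor gene Il5ra were not listed.

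The ligands of Ccr3 moved both ways. Of 7 ligand genes, 5 were listed, 3 higher and 2 lower. Ccl11, which encodes eotaxin-1, rose 6.74-fold from 79.8 to 538 FPKM. Ccl9 rose 6.68-fold from 18.7 to 124.9 FPKM and Ccl7 rose 4.53-fold from 70.9 to 320.9 FPKM. Ccl28, a chemokine made by mucosal epithelium, fell 20.9-fold from 35.0 to 1.67 FPKM, and Ccl5 fell 2.38-fold from 246 to 103 FPKM. Ccl24, the second eotaxin of the mouse, was not listed. Of 10 growth factor and type 2 cytokine genes, among them Kitl, which encodes the Kit ligand, Il5, Il9, Il13, Il33 and Tslp, 0 were listed.

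**Figure D3:**
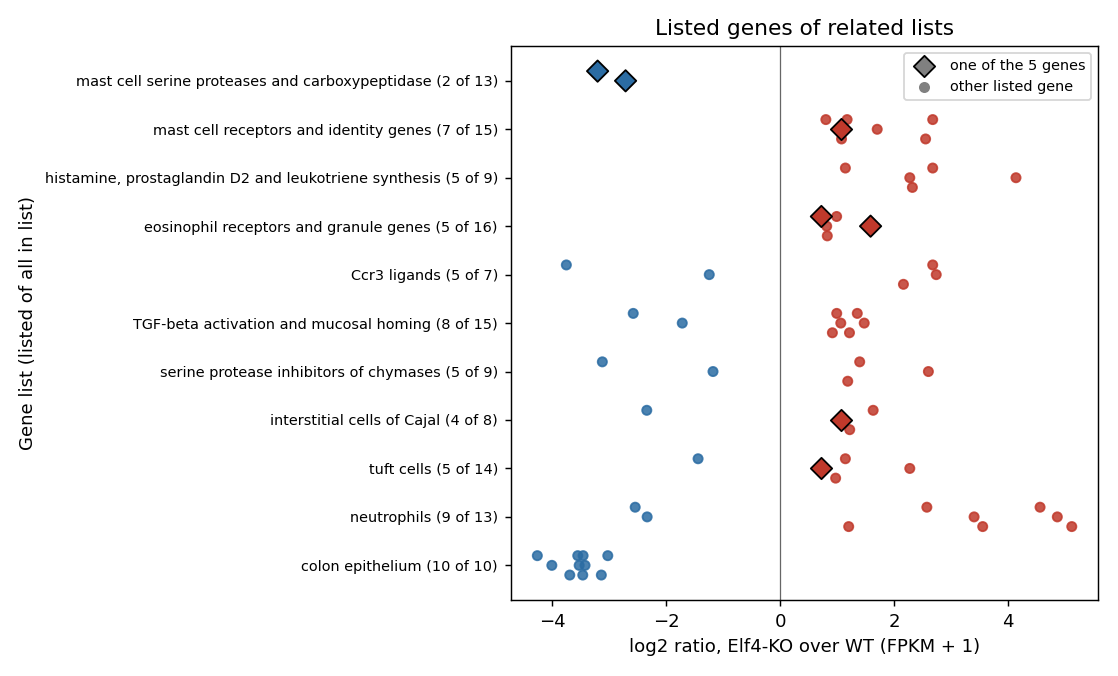
Log2 ratio of Elf4-KO over WT on the log2(FPKM + 1) scale for the listed genes of 11 gene lists, 1 point per gene (blue lower, red higher, diamonds for the 5 genes described), with the number listed of all genes in the list at the left. The 2 proteases lie on the side of the epithelial markers, and the 7 mast cell receptor and identity genes lie on the opposite side.

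Induction of mMCP-1 in mucosal mast cells depends on transforming growth factor beta, which the epithelial integrin alpha-v beta-6 activates. Of 15 genes of this activation route and of homing to the gut, 8 were listed, 2 lower and 6 higher (median log2 ratio 1.03). Itgb6, the beta-6 chain, fell 7.60-fold from 23.2 to 3.05 FPKM. Itgae, the integrin chain CD103 that binds E-cadherin, fell 5.47-fold from 5.74 to 1.05 FPKM. Itgav, the alpha-v chain, rose 2.60-fold from 31.4 to 81.8 FPKM and the receptor gene Tgfbr1 rose 2.86-fold from 21.9 to 62.5 FPKM. Tgfb1, chosen after its values were seen, rose 2.15-fold from 19.2 to 41.3 FPKM. Of 9 inhibitors of chymase-like proteases, 5 were listed, 3 higher and 2 lower. Serpina3n, an antichymotrypsin-like serpin, rose 6.08-fold from 328 to 1993 FPKM, Serpina3g rose 2.65-fold and A2m, a broad protease trap, rose 3.25-fold. Serpinb1a, an intracellular serpin, fell 8.82-fold from 546 to 61.8 FPKM and Serpinb6a fell 2.27-fold.

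The fall of the proteases stood beside a fall of markers of the epithelium in which mucosal mast cells lie. The 10 epithelial markers fell between 8.23-fold and 19.4-fold, with a median of 11.7-fold, and their summed level went from 8642 to 647 FPKM, with 0 of them listed at 0 in WT. The 17.0-fold fall of Mcpt2 lay inside that range, and the 7.95-fold fall of Mcpt1 just below it. The genes nearest to each protease in both genotypes, by Euclidean distance over the 2 log2(FPKM + 1) values, were Pla2g4f, Ihh and Esrp2 for Mcpt2 and 0610040J01Rik, Prelid2 and Cblc for Mcpt1. Ihh encodes a hedgehog ligand of differentiated colonocytes, and Esrp2 an epithelial splicing regulator (q = 0.0137 for Esrp2, from the authors' deposited table). Pla2g4f went from 17.7 to 1.02 FPKM, at a distance of 0.03 from Mcpt2. The part of the epithelium in the fall of the proteases was not tested.

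Kit is carried by interstitial cells of Cajal, the pacemaker cells of the gut wall, as well as by mast cells. Of 8 genes of these cells, 4 were listed, 3 higher and 1 lower. Gja1, a gap junction gene, rose 3.14-fold, Adgrd1 rose 2.71-fold (q = 0.00128, from the authors' deposited table) and Thbs4 fell 5.45-fold. Ano1, the chloride channel that defines these cells, and the transcription factor gene Etv1 were not listed, and the part of these cells in the Kit value was not tested. All 3 listed genes of the 5 class III receptor tyrosine kinases rose, with Pdgfra going from 35.3 to 100.4 FPKM and Pdgfrb from 9.38 to 33.3 FPKM. The genes nearest to Kit by the same distance were Tcaf1 (q = 0.00288), Slc2a4 (q = 0.00564) and Dll1 (q = 0.000998), each q from the authors' deposited table.

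Siglecf is carried by intestinal tuft cells as well as by eosinophils. Of 14 tuft cell genes, 5 were listed, 4 higher and 1 lower. Besides Siglecf, Ptgs1 and Alox5, Bmx rose 2.89-fold (q = 0.00587, from the authors' deposited table), while Plcb2, a phospholipase of the taste pathway, fell 4.73-fold. The defining tuft cell genes Dclk1, Trpm5, Pou2f3 and Avil were not listed. Within the Siglec family of 9 genes, 4 were listed and 4 rose, beside 48.0% of all listed genes. Cd33 rose 9.06-fold from 5.05 to 45.8 FPKM, Siglec1, a receptor of macrophages, 5.34-fold from 1.96 to 10.5 FPKM and Siglece, found on neutrophils and macrophages, 5.11-fold from 3.46 to 17.7 FPKM. Siglecf had the lowest level of these 4 in both genotypes. Of 11 CC chemokine receptors, 4 were listed and 4 rose, beside the same 48.0%, and Ccr3 had the largest fold of the 4. Ccr1 rose 3.92-fold, Ccrl2 3.36-fold and Ccr8 3.27-fold (q = 0.0363 for Ccr8, from the authors' deposited table). The genes nearest to Ccr3 by level were Ankrd33b, Atp6v0d2 and Fbxo17, and those nearest to Siglecf were Mamld1 (q = 0.00792), Enox1 (q = 0.021) and Ttpa (q = 0.0376), each q from the authors' deposited table.

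Basophils and group 2 innate lymphoid cells share markers with these lineages. Of 8 basophil genes, 1 was listed, Itga2, which fell 2.41-fold, and Mcpt8, the basophil protease, was not listed. Of 9 genes of group 2 innate lymphoid cells, 4 were listed. Rora rose 4.10-fold, Il7r rose 2.01-fold (q = 0.0065, from the authors' deposited table) and Il1rl1 rose as given above, while Areg, which encodes amphiregulin, fell 2.29-fold (q = 0.000998, from the authors' deposited table).

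The loci of the 5 genes were compared with their neighbours within 500 kb. Mcpt1 and Mcpt2 lie 21.7 kb apart in a cluster that also holds Cma1, Cma2, Mcpt9, Mcpt4, Mcpt8, Ctsg and the granzyme genes. Around Mcpt2, 13 of 49 protein-coding neighbours were listed, 9 lower and 4 higher. Within the protease cluster itself, Mcpt1 and Gzmc were listed beside Mcpt2, and Gzmc had 0.927 FPKM in WT and was listed at 0 in Elf4-KO. Farther out, Cideb fell 10.5-fold (q = 0.0171, from the authors' deposited table), Ripk3 3.92-fold, Mdp1 3.19-fold, Atp12a 3.19-fold and Psme2 2.90-fold. Tssk4 fell 5.77-fold (q = 0.0466, from the authors' deposited table) and Cenpj 2.01-fold (q = 0.0349, from the authors' deposited table). Nfatc4 rose 3.83-fold, Tgm1 3.29-fold, Ltb4r1, a receptor for leukotriene B4, 2.52-fold (q = 0.0186, from the authors' deposited table) and Nynrin 2.35-fold (q = 0.0063, from the authors' deposited table). Around Kit, 2 of 4 protein-coding neighbours were listed and rose, the growth factor receptor genes Pdgfra and Kdr (q = 0.000998 for Kdr, from the authors' deposited table). Around Ccr3, 2 of 15 were listed. Ccr1, 53.3 kb away, rose, and 2010315B03Rik fell 2.05-fold (q = 0.0419, from the authors' deposited table). Around Siglecf, 5 of 31 were listed, with Cd33 and Siglece higher and Etfb, Nkg7 and Ceacam18 lower. Listed neighbours that are not protein-coding were CAAA01180111.2 near Ccr3 (q = 0.0237, from the authors' deposited table) and Gm2511 near Siglecf (q = 0.00974, from the authors' deposited table), both listed at 0 in WT. The neighbours of Mcpt2, Ccr3 and Siglecf moved both ways, as did the whole table, with 52.0% lower and 48.0% higher. The share of all protein-coding genes that were listed was not computed, so nothing is read from these counts.

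**Figure D4:**
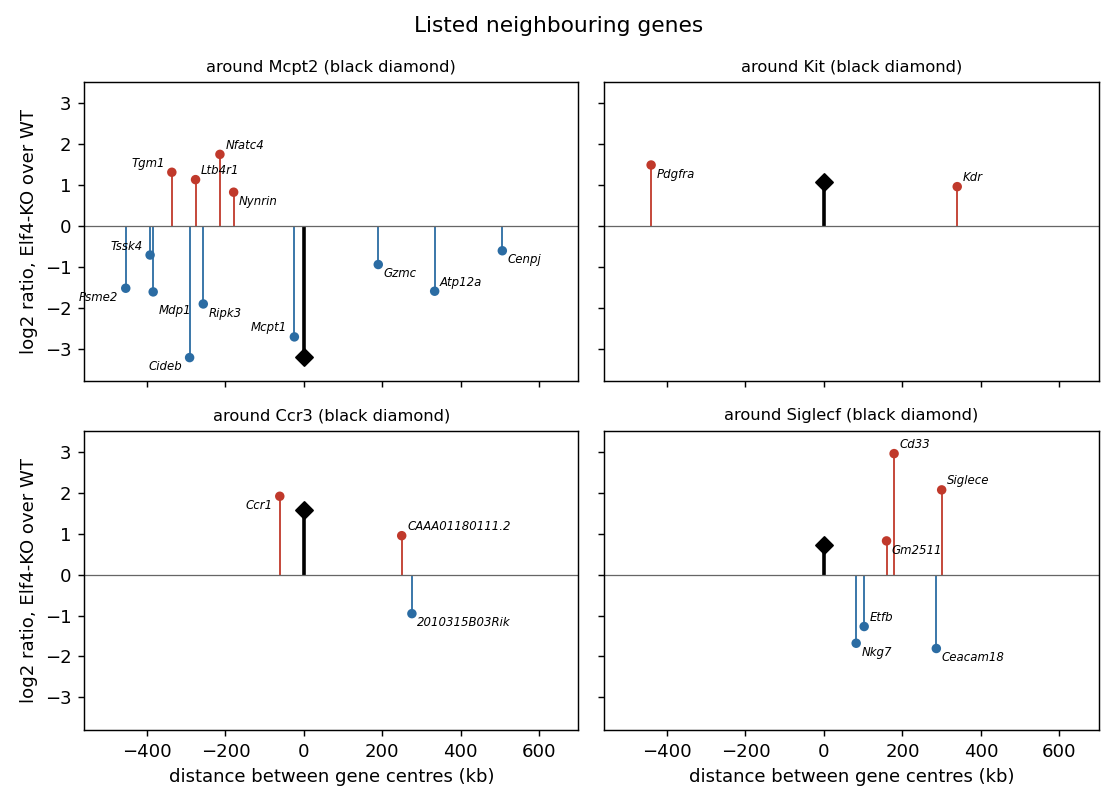
Log2 ratio of Elf4-KO over WT on the log2(FPKM + 1) scale for listed genes within 500 kb of Mcpt2, Kit, Ccr3 and Siglecf, placed by the distance between gene centres in kb (blue lower, red higher, black diamond for the named gene). Mcpt1 stands 24.2 kb from Mcpt2 by centre and falls with it, and Pdgfra and Kdr on each side of Kit rise with it.

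The promoters are shown because Elf4 is an Ets factor and GATA factors act in mast cells and eosinophils. RefSeq promoters on GRCm38.p6 were found for 4 of the 5 genes, Mcpt1, Kit, Ccr3 and Siglecf. The 250 bases before the start were searched on both strands for GATAAG, an extended GATA core, and for GGAAGT, an extended Ets core. These 2 motifs can share a G where they meet, and they were chosen after the sequences were seen. Shorter cores, such as the GGAA that begins at the last G of the Mcpt1 GATAAG, were not counted. Capitals mark the matches in the promoters of Mcpt1 (chr14:56017714-56017963), Ccr3 (chr9:124021721-124021970) and Siglecf (chr7:43351091-43351340), all on the plus strand.
Mcpt1: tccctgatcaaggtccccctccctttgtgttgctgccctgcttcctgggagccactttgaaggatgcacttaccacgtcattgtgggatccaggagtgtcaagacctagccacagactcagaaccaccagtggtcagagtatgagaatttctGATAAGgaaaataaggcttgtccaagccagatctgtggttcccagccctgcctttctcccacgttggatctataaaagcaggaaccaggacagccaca
Ccr3: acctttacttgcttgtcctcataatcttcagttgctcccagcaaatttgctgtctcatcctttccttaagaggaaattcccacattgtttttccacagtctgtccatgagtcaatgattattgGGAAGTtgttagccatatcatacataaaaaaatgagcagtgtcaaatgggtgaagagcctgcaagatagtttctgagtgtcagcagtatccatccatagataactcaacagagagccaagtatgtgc
Siglecf: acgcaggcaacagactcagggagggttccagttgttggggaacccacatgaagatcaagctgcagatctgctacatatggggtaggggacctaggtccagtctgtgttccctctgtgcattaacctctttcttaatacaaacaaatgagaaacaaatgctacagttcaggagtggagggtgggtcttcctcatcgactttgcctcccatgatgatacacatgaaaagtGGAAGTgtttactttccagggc

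The Mcpt1 promoter held 1 GATAAG, beginning 98 bases before the start, and 0 GGAAGT. The promoters of Ccr3 and Siglecf held 1 GGAAGT each, beginning 127 and 22 bases before the start, and 0 GATAAG, and the 2 promoters that the RefSeq table gives for Kit held 0 of either. Of 27025 promoters of the same length, 6.60% held GATAAG and 20.0% held GGAAGT. Among listed genes GGAAGT was in 20.2% of the promoters of genes that fell and in 17.1% of those that rose. A match describes these letters alone, and binding was not measured.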

How the data were processed

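RNA sequencing was done on 2 WT and 2 Elf4-KO colon samples. Trizol RNA and a Vazyme mRNA library kit were used, per the labels' protocols. The submitters' processing notes name Bowtie 0.12.2, Cufflinks 2.2.1 and mm8 but give no roles. The authors combined the samples of a genotype into 1 FPKM value per gene, per the file headers, and how is not stated there. The p-value and q-value of each gene are those of the authors' comparison in the deposited table. Because only called genes are listed, the direction of a listed gene can be read, but no gene can be called unchanged.

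Of 4121 gene identifiers, 4116 were in GENCODE M21 (GRCm38), and 4114 overlapped the annotated gene. The coordinates were therefore read as GRCm38, not mm8, with 1 added to each start.

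Folds were computed from the FPKM values, and log2 ratios after adding 1. No test between samples could be computed, so the planned fit per sample was not run. The functions were tested on simulated data. The 5 genes and the 17 lists (161 genes, 72 listed) were chosen with earlier results of these data known. Named were the 5 genes, Elf4, every listed gene of a list with 5 or fewer listed (otherwise the 4 largest log2 ratios with at least 1 FPKM, plus ligands, receptors or partners), listed genes within 500 kb, and the 3 nearest by level. Others are marked as picked with their values in view. Large lists of epithelium and neutrophils are given mainly by count. The results were recomputed with minimums of 1 and 5 FPKM, q of at most 0.01, at least 4-fold, pseudocounts of 0.1 and 0, and centring on the median ratio. Python 3.11.15, numpy 2.4.6, pandas 2.3.3, biopython 1.88 and matplotlib 3.10.9 were used.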

Additional observations from a re-analysis of the deposited data

How the results depend on the processing

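No paired analysis was possible because each genotype has a single value, and for the same reason leaving out each sample was not run. The 2 proteases passed each filter tried. Filters and pseudocounts cannot turn the direction of a gene, so these alternatives do not test it. Of the 3 genes that rose, 1 (Ccr3) passed a 4-fold limit, 1 (Kit) had at least 5 FPKM in the higher genotype, and 2 (Kit and Ccr3) had q of at most 0.01 in the authors' deposited table. With at least 1 FPKM all 3 remained. Shifts over 1.5 times were taken as moved. The log2 ratio of Siglecf, 0.72 with a pseudocount of 1, was 1.31 with 0.1 and 1.44 with 0, since its values are low. Centring on the median of all listed genes, -0.76, gave 1.48 for Siglecf and 1.82 for Kit. That median comes from called genes alone. This centring moved every ratio upward, so it could not turn the 3 genes that rose. Mcpt1 and Mcpt2 stayed lower, at -1.96 and -2.45. A downward shift of the same size would turn Siglecf, whose ratio of 0.72 is smaller than the shift. Depth and the spread between samples are unknown for all 5 genes. The WT values of Siglecf and Ccr3 are under 1 FPKM.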

Other observations

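The descriptions in the deposited table tie 6 genes to mast cells or eosinophils by name, 2 lower (Mcpt1 and Mcpt2) and 4 higher. Besides Ear6, the higher ones, found by this search after the values were seen, were Mcemp1, Milr1 and Rnase2a. Mcemp1, a membrane protein gene first described in mast cells, rose 4.81-fold from 4.16 to 20.0 FPKM. Milr1, an inhibitory receptor gene of mast cells and other myeloid cells, rose 2.73-fold from 9.83 to 26.8 FPKM (q = 0.00359, from the authors' deposited table). Rnase2a, a ribonuclease gene of the family of eosinophil-derived neurotoxin, was listed at 0 in WT and 0.577 FPKM in Elf4-KO (q = 0.00891, from the authors' deposited table).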
